A study of Mus musculus with 4 samples.

Results

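The cytosolic ribosome is built from ribosomal RNA and proteins, and the genes described here encode the protein part of its large (Rpl) and small (Rps) subunits. Members were taken by symbol: Rpl or Rps followed by a number, with the stalk genes Rplp0, Rplp1 and Rplp2 and the small-subunit gene Rpsa, without pseudogenes, and with at least 50 UMIs (unique molecular identifiers, counted transcripts) over all sections. Of 31253 genes in the files, 83 symbols matched and 81 passed the minimum. These were 43 large-subunit genes, 31 small-subunit genes, 3 stalk genes and 4 paralogues (Rpl3l, Rpl7l1, Rpl22l1 and Rps27l). Rpl3l, a paralogue of Rpl3 known from muscle, was just inside the minimum with 53 UMIs, and Rpl39l (21 UMIs) and Rpl10l (0 UMIs), paralogues known from testis, were outside. Fau and Rack1 also belong to the ribosome but have other symbols, and are given below with the related genes.

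The data are spatial transcriptomes (10x Visium) of fresh-frozen mouse liver, in which each barcoded spot holds RNA of several neighbouring cells. MAFL-1 and MAFL-2 are sections of the MAFL model, from mice fed a diet labelled WD for 8 weeks. MASH-1 and MASH-2 are sections of the MASH model, from mice fed WD for 16 weeks. Model name and weeks of feeding change together and cannot be told apart, and no section of untreated liver was analysed here. The labels name neither strain nor age, and whether both livers of a model are from different mice is not in them. The p-values of MASH against MAFL therefore measure the spread between these sections, which may be technical. Those of classes of spots, with the section as a block, measure how class differences vary over these sections. Where 4 values follow each other below, they are given section by section, first MAFL-1 and MAFL-2, then MASH-1 and MASH-2.

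Ribosomal protein genes are expressed in every growing cell and are among the most abundant transcripts of hepatocytes, which make large amounts of secreted protein. Their messenger RNAs typically begin with a cytosine followed by a run of pyrimidines, the terminal oligopyrimidine tract, through which the growth kinase mTORC1 controls their translation. In the liver lobule, blood runs from the portal tract (periportal) to the central vein (pericentral), and hepatocytes differ in function along that path.

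The kept spots numbered 2036 in MAFL-1, 1881 in MAFL-2, 2467 in MASH-1 and 1862 in MASH-2, with median depths of 15430.5, 19671, 25291 and 20132.5 UMIs. Total counts per section ran from 32249289 to 63808230 UMIs. Genes of a fixed hepatocyte marker list took 1205 to 1288 of every 10000 UMIs in the 4 sections, as the tissue label says. The immune list (24 genes) took 4.69 and 5.08 of every 10000 in the MAFL sections and 12.6 and 19.5 in the MASH sections, and the lipid-associated macrophage list (11 genes) 2.48, 1.77, 2.88 and 6.88. No marker was listed at 0 in all sections. A spot sum cannot tell fewer cells of a type from less RNA per cell.

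None of the sequence features counted here stood at most annotated starts of these genes. All but TATAA were more frequent there than at the starts of all genes. RefSeq's promoter table (GRCm38.p6, the assembly of mm10) matched 61 members with 73 annotated starts. Of those starts, 13 (17.8%) had a C at the first base followed by at least 4 pyrimidines (C or T), against 823 (2.51%) of 32851 starts of all genes. The palindrome CTCGCGAG stood at 8 member starts (11.0%, against 0.919% of all), CCGGAAGT in 12 (16.4% against 3.89%), AAGATGGC in 8 (11.0% against 2.75%) and TATAA in 17 (23.3% against 24.9%). These letter matches were counted on both strands of 300-base windows (the pyrimidine start on the transcribed strand only), and no motif contains another. An annotated start that is off by a base hides a pyrimidine tract from this search. Windows from 40 bases before to 20 bases from the first transcribed base are printed for Rpl10, the one member past the test between the models, for Rpl35, whose start has a pyrimidine tract, and for Rpl22l1 and Rpl13a, which were among the strongest members along the lobule. Capitals mark the pyrimidine tract at the start of Rpl35 and TATAA in Rpl10 and Rpl22l1. The marked TATAA lies after the first transcribed base in Rpl10, inside the transcript, and before it in Rpl22l1.
Rpl10 (chrX:74270776-74270835, plus strand): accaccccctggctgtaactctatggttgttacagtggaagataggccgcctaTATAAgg
Rpl35 (chr2:39005112-39005171, minus strand): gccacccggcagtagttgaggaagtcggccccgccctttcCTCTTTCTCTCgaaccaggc
Rpl22l1 (chr3:28805468-28805527, plus strand): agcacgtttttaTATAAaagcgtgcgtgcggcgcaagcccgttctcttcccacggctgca
Rpl13a (chr7:45128726-45128785, minus strand): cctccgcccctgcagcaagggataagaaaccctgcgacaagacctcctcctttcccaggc

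The members with an annotated pyrimidine start had medians close to those of the other matched members in the comparisons below. Since an annotated start off by a base hides a tract, the others are not known to lack one. The 13 such genes, among them Rps6, Rpl35, Rplp2 and Rps27, had a median log2 fold change of 0.35 for MASH over MAFL, beside 0.33 for the 47 other matched members with over 53 UMIs. Both MASH sections lay above both MAFL sections in 12 of 13 and 33 of 47 of these genes, as in 26.9% of all genes. Along the lobule the medians of these groups were 0.13 and 0.11 (log2, periportal over pericentral). There 7 of 13 and 16 of 47 members were called higher, as were 11.0% of all genes. Members with CTCGCGAG (7 genes: Rpl10a, Rpl12, Rpl26, Rpl27a, Rps6, Rps19 and Rps28) had medians of 0.31 and 0.11. These are descriptions without a test.

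Ribosomal protein genes made up 4.62% of all UMIs in MAFL-1 (95% exact binomial interval 4.61 to 4.63), 4.38% in MAFL-2 (4.37 to 4.39), 6.28% in MASH-1 (6.28 to 6.29) and 5.73% in MASH-2 (5.72 to 5.74). Both MASH sections lay above both MAFL sections, by more than the spread within either group. The means were 4.50% ± 0.168 (SD, n = 2) and 6.01% ± 0.388 (SD, n = 2), a difference of 1.51 percentage points or 1.33 times. With 2 sections against 2, the smallest two-sided p an exact permutation test can give is 0.3333, so no p is given for the share. The intervals cover counting error only, which is far smaller than the differences between sections of one group.

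The genes of both subunits differed between the models in like proportion. In these sums the stalk genes were counted with the large subunit and the paralogues with neither. Large-subunit genes took 2.61% ± 0.0916 of UMIs in MAFL and 3.48% ± 0.257 in MASH (SD, n = 2 each), 1.33 times as much. Small-subunit genes took 1.83% ± 0.0731 and 2.45% ± 0.126 (SD, n = 2 each), 1.34 times as much. The ratio of large- to small-subunit UMIs was 1.42, 1.43, 1.44 and 1.40, so the group means differed by less than the spread between the MASH sections. Major urinary protein (Mup) genes, highly abundant secreted products of mouse hepatocytes, took 6.29% ± 0.793 of UMIs in MAFL and 3.65% ± 0.0681 in MASH. With Mup and mitochondrial genes left out of the total, the ribosomal share was 5.04% ± 0.195 in MAFL and 6.53% ± 0.376 in MASH, 1.29 times.

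Nearly all MASH spots lay above the MAFL medians, but the spread of spots overlapped between the models. The median share per spot was 4.55% in MAFL-1, 4.27% in MAFL-2, 6.09% in MASH-1 and 5.46% in MASH-2. Above the MAFL-1 median lay 24.4% of the MAFL-2 spots, 99.3% of the MASH-1 spots and 97.1% of the MASH-2 spots. Spots varied more than counting allows: the SD of the share between spots was 2.96, 2.83, 3.97 and 5.22 times that expected from counting, widest in MASH-2.

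Depth differed between sections, so spots of like depth were also compared. In 6 ranges of total UMIs per spot, from under 10000 to 30000 or more, both MASH sections lay above both MAFL sections in 6 of 6. At 15000 to 20000 UMIs the shares were 4.58%, 4.23%, 6.02% and 5.54%, and over the ranges the MASH mean was 1.24 to 1.31 times the MAFL mean.

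**Figure D1:**
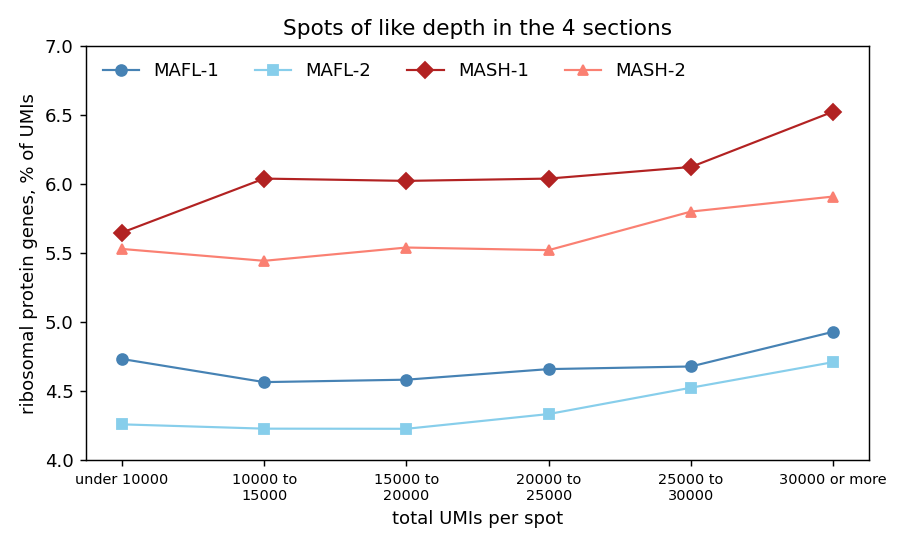
Share of UMIs from ribosomal protein genes (vertical axis, %) in spots of 6 ranges of total UMIs (horizontal axis), with 1 line per section and no error bars. Both MASH lines lie above both MAFL lines in every range, and the sections keep their order from MASH-1 at the top to MAFL-2 at the bottom.

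Immune-rich spots had a larger share of ribosomal protein UMIs within each section. The spots of each section were split into 2 equal sets by their immune list share, ranked among spots of like depth. The immune-rich spots exceeded the immune-poor spots by 0.120 percentage points in MAFL-1, 0.127 in MAFL-2, 0.318 in MASH-1 and 0.724 in MASH-2. In the immune-poor spots alone the shares were 4.56%, 4.32%, 6.12% and 5.37%, with both MASH sections above both MAFL sections. The split was made within each section and does not match immune content between the models: the immune list took 7.86 and 11.3 of every 10000 UMIs in the immune-poor spots of MASH-1 and MASH-2, more than the 6.67 and 6.96 in the immune-rich spots of MAFL-1 and MAFL-2. Immune cells' part in the difference between the models was not tested beyond these values.

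Single genes were compared with edgeR's quasi-likelihood test on section sums, with p-values adjusted by Benjamini-Hochberg over 13593 genes. Levels are counts per 1000000 UMIs (CPM) after TMM scaling, a correction for composition, and standard errors (SE) are on the log2 scale. Of 81 members, 1 was called higher in MASH (Rpl10) and 0 lower, against a background of 0.309% of all genes called higher and 0.147% lower. At an unadjusted p under 0.05, 15 members were higher and 0 lower, where 10.2% of all genes were higher and 8.92% lower, so the members past this p, taken in either direction, were no more frequent than among all genes. DESeq2 called 3 higher (Rpl10, Rps2 and Rpl39) and 0 lower, where it called 2.78% of all genes higher and 1.92% lower. By fold change alone, 75 of 81 were positive and the median log2 fold change was 0.34, beside 0.01 over all genes tested. The median depended on the MASH sections: it was 0.17 with 64 of 81 positive without MASH-1, and 0.46 with 78 positive without MASH-2. Both MASH sections lay above both MAFL sections in 61 members, while 26.9% of all genes did so, and below them in 2 (Rpsa and Rpl7l1), as in 26.4% of all genes. The other 18 overlapped.

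Rpl10, a large-subunit protein that joins late in assembly beside the catalytic centre, lies on the X chromosome (74270816 to 74273135 in GRCm38.p6). Its level was 229.9 CPM in MAFL-1, 229.2 in MAFL-2, 494 in MASH-1 and 529 in MASH-2. The MAFL sections were nearly equal, and both MASH sections were far above them. The log2 fold change was 1.16 (SE 0.17, adjusted p = 0.0462, edgeR), a 2.23-fold difference. The call was lost without MAFL-1, MAFL-2 or MASH-2 (adjusted p 0.135 to 0.288), in spots of 10000 to 30000 UMIs (adjusted p = 0.0571) and with the section number as a block (adjusted p = 0.202). The log2 fold change was between 1.07 and 1.26 in the 16 alternatives tried. Reads can be shared with a near-identical copy: the pseudogene Rpl10-ps3 had 74.5, 57.8, 77.3 and 29.4 CPM, and the sum of both was 304, 287, 572 and 559. The other X-linked members were less far apart, at log2 0.56 for Rpl39, 0.30 for Rpl36a and 0.22 for Rps4x, none past the test.

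Among large-subunit members, Rpl39, a small protein lining the exit tunnel, was at 469, 466, 728 and 650 CPM (log2 0.56, SE 0.18, adjusted p = 0.175). Its groups did not overlap, with the MAFL sections nearly equal. Rpl35, which sits near the tunnel exit, was at 190, 245, 247 and 407 CPM (log2 0.59, SE 0.27, adjusted p = 0.288), so only MASH-2 stood clear of MAFL-2. Rpl41, the shortest ribosomal protein, had 1652, 1515, 2339 and 1936 CPM (log2 0.43), and Rpl3, which lies close to the catalytic centre, had 340, 298, 420 and 378 CPM (log2 0.32). Rpl22, an RNA-binding member, overlapped between groups at 418, 391, 611 and 410 CPM. The lowest large-subunit genes were Rpl8 (742, 746, 788 and 644 CPM, log2 -0.05) and Rpl31 (log2 -0.03), whose groups also overlapped. Over the 43 large-subunit genes, 41 had a positive fold change and the median was 0.33.

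Of the small-subunit members, 29 of 31 were positive, with a median log2 fold change of 0.35. Rps2, which lies at the mRNA entry channel, had 718, 749, 1291 and 1019 CPM (log2 0.66, SE 0.20, adjusted p = 0.162). It is the member with the largest fold change after Rpl10, and its groups did not overlap. Rps29 reached 623, 660, 757 and 1150 CPM (log2 0.57), with MASH-2 far above MASH-1. Rps6, the classical substrate of S6 kinase downstream of mTORC1, had 405, 409, 473 and 469 CPM (log2 0.21, adjusted p = 0.522). Rps27 had 571, 644, 715 and 834 CPM (log2 0.35). Rpsa, known also as the laminin receptor, had 992, 984, 968 and 922 CPM (log2 -0.06), and Rps15 had 845, 869, 957 and 752 CPM (log2 0.00).

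**Figure D2:**
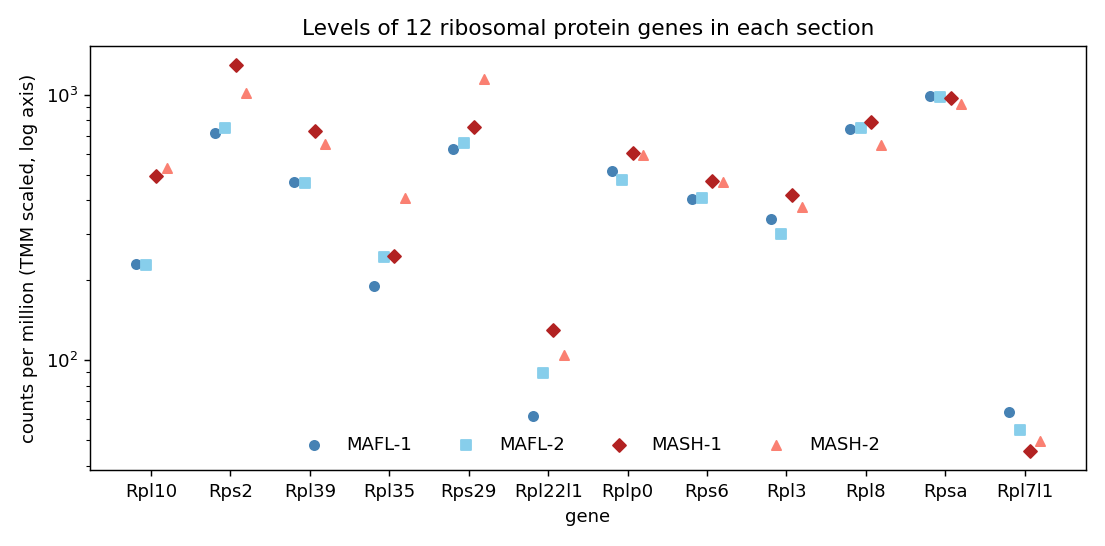
Levels of 12 members (horizontal axis) in each section, in TMM-scaled CPM on a log axis, with 1 symbol per section. Rpl10 is at 229.9 and 229.2 in MAFL and at 494 and 529 in MASH, whereas Rpsa and Rpl7l1 are lower in both MASH sections.

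The stalk genes, whose products recruit elongation factors to the ribosome, had similar fold changes of 0.27 to 0.35 on the log2 scale, none past the test. Rplp0, which anchors the stalk, was at 515, 477, 601 and 594 CPM, Rplp1 at 1592, 1648, 2096 and 1809 CPM and Rplp2 at 459, 494, 556 and 656 CPM. In all 3 genes both MASH sections were above both MAFL sections.

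The paralogues went different ways. Rpl22l1 had 61.4, 89.5, 129.6 and 104.4 CPM (log2 0.63, SE 0.22, adjusted p = 0.21), and 14.7, 22.9, 21.2 and 25.5 of its UMIs were counted per 100 of Rpl22, so that ratio overlapped between the models. Rpl7l1, known for a role in large-subunit assembly, had 64.0, 54.6, 45.5 and 49.7 CPM (log2 -0.32, SE 0.16, adjusted p = 0.316), and its UMIs per 100 of Rpl7 were 15.2, 13.3, 8.82 and 11.3, lower in both MASH sections. Rps27l, known as a p53 target, had 502, 459, 615 and 491 CPM (log2 0.20), and its UMIs per 100 of Rps27 were 88.0 and 71.2 in MAFL and 86.0 and 58.9 in MASH, overlapping and higher in the section numbered 1 of each model. Rpl3l stayed under 0.45 CPM in every section, too low to compare.

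**Figure D3:**
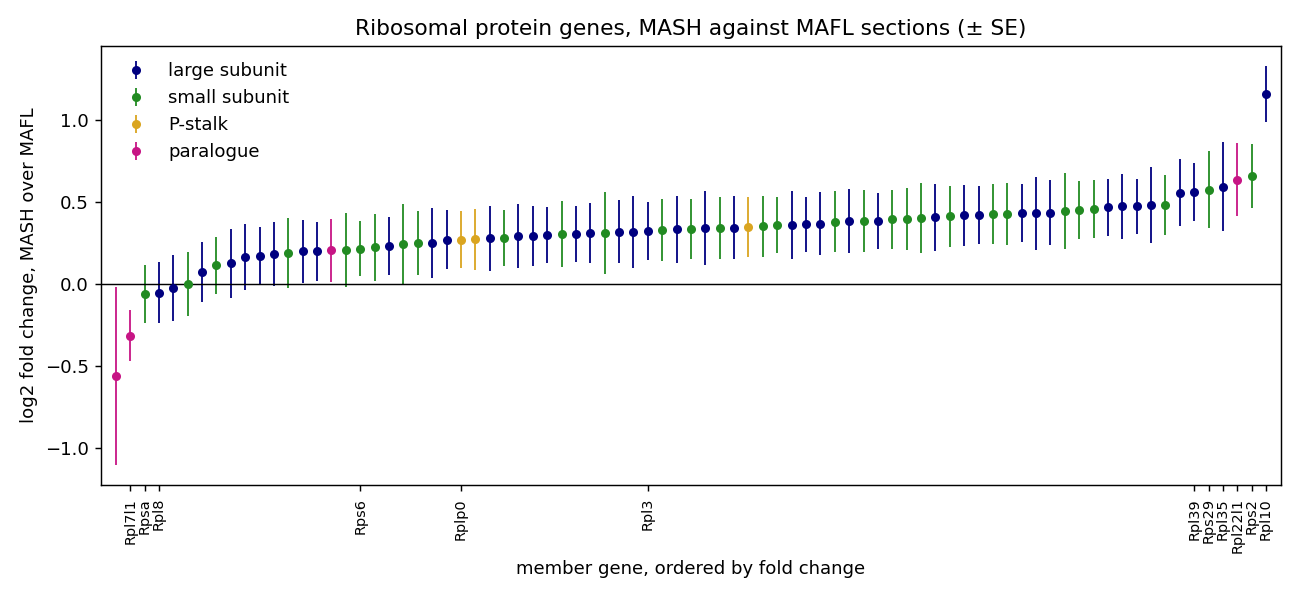
Log2 fold change of MASH over MAFL (vertical axis) with its SE for each of the 81 members (horizontal axis, in order of fold change, with 12 of them labelled), coloured by role. Rpl10 stands apart at 1.16, most members of both subunits lie between 0.1 and 0.6, and 6 members are below 0.

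The sections of one group also differed from each other, and in the MASH pair the members did so in both directions. Of the 80 members other than Rpl3l, 71 were higher in MASH-1 than in MASH-2 and 9 lower, with a median log2 ratio of 0.26. At the ends were Rps7 (814 and 501 CPM, log2 0.70) and Rps20 (1314 and 834 CPM, log2 0.66) on the MASH-1 side, and Rpl35 (log2 -0.72), Rps28 (512 and 780 CPM, log2 -0.61) and Rps29 (log2 -0.60) on the MASH-2 side. The SD of this log2 ratio over members was 0.26 for the MASH pair and 0.12 for the MAFL pair, whose median was 0.02.

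The lists of genes that work with the ribosome had medians below the members' 0.34. Of 13 elongation factors tested, edgeR called 0, with a median log2 fold change of 0.10. Eef2, which moves the ribosome along the mRNA, was at 1267, 1336, 863 and 775 CPM (log2 -0.67, adjusted p = 0.139), opposite in sign to most members, and its groups did not overlap. Without adjustment only Eef2 passed, and DESeq2 also called 1 gene of this list, lower. Of the 7 ribosome-associated and ubiquitin-fusion genes, 0 passed, 0 also at an unadjusted p and with DESeq2. Fau, a fusion whose product is a small-subunit protein, was at 1020, 1281, 1560 and 1202 CPM (log2 0.26), and Rack1, a small-subunit scaffold, at 491, 464, 484 and 424 CPM. For ribosome biogenesis (38 genes) the median was -0.18 with 7 of 38 genes positive, 0 called by either tool and 4 lower at an unadjusted p, and Noc2l, a nucleolar assembly factor, was at 24.1, 26.9, 17.2 and 17.6 CPM (log2 -0.55, adjusted p = 0.128). The 20 cytosolic tRNA synthetases had a median of -0.30, with 0 called by either tool and 3 lower at an unadjusted p. Mitochondrial ribosomal proteins, products of a separate gene family, had a median of 0.05 over 77 genes, with 0 called by edgeR, 8 higher and 3 lower at an unadjusted p, and 3 called higher by DESeq2.

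The position along the lobule was read from each spot's ratio of Cyp2f2, a periportal gene, to Cyp2e1, a pericentral one, and the spots of each section were ranked by it into 3 lobule classes of equal size. Both genes were left out of the tests of these classes. Other zoned genes followed the labels, for instance Alb, higher in the periportal class (log2 0.91, SE 0.06), and the urea cycle genes Cps1 (log2 0.50) and Ass1 (log2 0.48), all past the test with edgeR. The ribosomal share in the pericentral, middle and periportal classes was 4.62%, 4.67% and 4.57% in MAFL-1 and 4.37%, 4.36% and 4.41% in MAFL-2. It was 5.99%, 6.03% and 6.68% in MASH-1 and 5.56%, 5.51% and 5.94% in MASH-2. The periportal class was thus above the pericentral class by 0.699 and 0.372 percentage points in the MASH sections, and the difference was -0.0433 and 0.0374 in the MAFL sections.

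**Figure D4:**
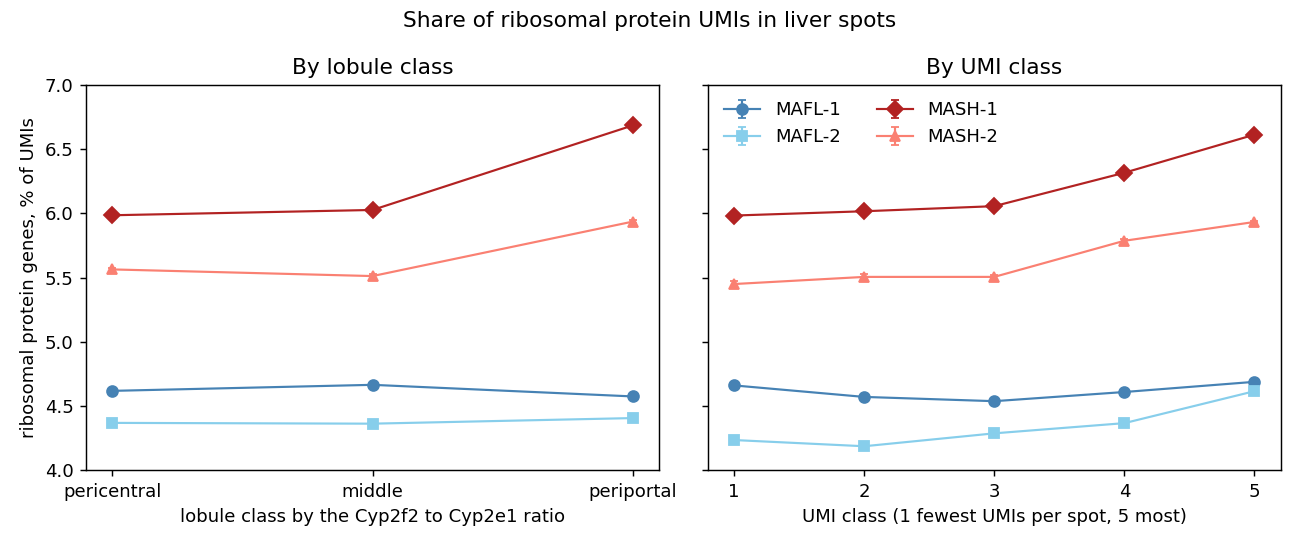
Share of UMIs from ribosomal protein genes (vertical axis, %) by lobule class (left) and by class of total UMIs per spot (right), with 1 line per section and exact 95% intervals that are mostly smaller than the symbols. The MASH lines step up in the periportal class, and the MASH lines and that of MAFL-2 step up in the upper UMI classes. Both MAFL lines stay between 4.1% and 4.7%.

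Depth per spot moved with the lobule classes in some sections. Median UMIs in the periportal and pericentral classes were 15499 and 15626 in MAFL-1, 22462 and 18560 in MAFL-2, 33004 and 22911 in MASH-1 and 34028 and 15755 in MASH-2. With spots ranked within 5 classes of total UMIs, the periportal minus pericentral differences were -0.062, -0.0586, 0.506 and 0.117 percentage points. Within each UMI class alone, the periportal share was the higher in 0 of 5 in MAFL-1, 1 of 5 in MAFL-2, 5 of 5 in MASH-1 and 4 of 5 in MASH-2. The exception in MASH-2 was the class with most UMIs, where the difference was -0.458 and the pericentral class held 24 spots.

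Summed by section and lobule class, with the section as a block, 27 of 80 members tested were higher in the periportal class and 0 lower (edgeR, adjusted over 12104 genes), where 11.0% of all genes were called higher and 12.3% lower. At an unadjusted p, 42 were higher and 0 lower (16.1% and 17.1% of all genes), and DESeq2 called 19 and 0 (6.58% and 7.29% of all genes). The test treats 12 sums of a section and class as the data, from 4 sections. The 27 were 14 large-subunit genes, 12 small-subunit genes and Rpl22l1, and the median log2 difference of all 80 was 0.10, beside 0.00 over all genes. It was 0.07 without MASH-2 and 0.05 with spots ranked within UMI classes, each with 62 of 80 positive. In 31 of 80 members the periportal class was higher in all 4 sections, as in 18.3% of all genes.

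The largest differences along the lobule were small in size. Rps27a, made as a fusion of ubiquitin and a small-subunit protein (chromosome 11, 29545842 to 29548040), went from 808 to 940 CPM, pericentral to periportal, in MAFL-1, from 756 to 901 in MAFL-2, from 989 to 1376 in MASH-1 and from 677 to 918 in MASH-2. It was higher periportally in each section, with a log2 difference of 0.34 (SE 0.05, adjusted p = 7.37e-07, edgeR). Rpl22l1 went from 57.1 to 66.9, 84.3 to 93.4, 113.7 to 150.9 and 84.3 to 123.6 CPM (log2 0.34, SE 0.05, adjusted p = 2.84e-06). Rpl13a, known for silencing mRNAs after interferon-gamma, followed at 0.26, then Rps3a1 (0.22), Rpl12 (0.22) and Rpl7 (0.21). Rps6 (0.19), Rpl10 (0.18) and Rpl22 (0.13) also passed, whereas the stalk genes Rplp0, Rplp1 and Rplp2 did not (0.00, 0.04 and 0.06), nor did Rpsa (0.06), Rpl3 (0.11), Rpl39 (0.05), Rpl41 (0.12), Rps27 (0.04) or Rps27l (0.07). Among the lowest were Rpl19 (-0.06), Rps19 (-0.06), Rpl36 (-0.03) and Rpl29 (-0.03), none past the test.

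Each model was also fitted alone. In the MAFL sections 7 members were higher periportally (Rps27a, Rpl22l1, Rpl13a, Rps6, Rps23, Rps12 and Rps3a1) and 7 lower (among them Rpl36, Rps19, Rpl28, Rpl29, Rps15 and Rplp1), where 6.16% of all genes were called higher and 6.89% lower. The median was 0.01, so the family was split around 0. In the MASH sections 27 were higher and 0 lower, where 6.66% and 8.12% of all genes were, and the median was 0.19. At an unadjusted p, 52 were higher in MASH and 0 lower (13.2% and 14.0% of all genes), and DESeq2 was not run on single models. With spots ranked within UMI classes, the counts were 4 higher and 14 lower in MAFL, where 5.88% and 6.61% of all genes were called, with a median of -0.01. In MASH they were 12 higher and 0 lower, where 4.03% and 5.16% of all genes were, with a median of 0.11.

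The difference between the models was tested as an interaction of lobule class and model. Of 80 members, edgeR called 0 in either direction (background 0.310% of all genes higher and 0.215% lower in MASH), DESeq2 called 0 (0.725% and 0.544% of genes with an adjusted p), and 50 passed an unadjusted p, all with the higher periportal side in MASH, where 4.24% of all genes were higher and 4.53% lower. The difference was positive in 79 of 80, with a median of 0.19 (log2; 0.13 with spots ranked within UMI classes), and in 19 members the periportal class was lower in both MAFL sections and higher in both MASH sections, as in 4.11% of all genes. The lowest adjusted p was 0.123, for Rps15a (difference 0.30, SE 0.08). Rps15a went from 531 to 522, 474 to 480, 706 to 850 and 496 to 619 CPM, pericentral to periportal. The count depended on which sections were in the fit, but a fit without a section leaves a lone section in a model. For such fits only the median difference is given here. It was 0.24 without MASH-1, 0.14 without MASH-2, 0.16 without MAFL-1 and 0.21 without MAFL-2.

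**Figure D5:**
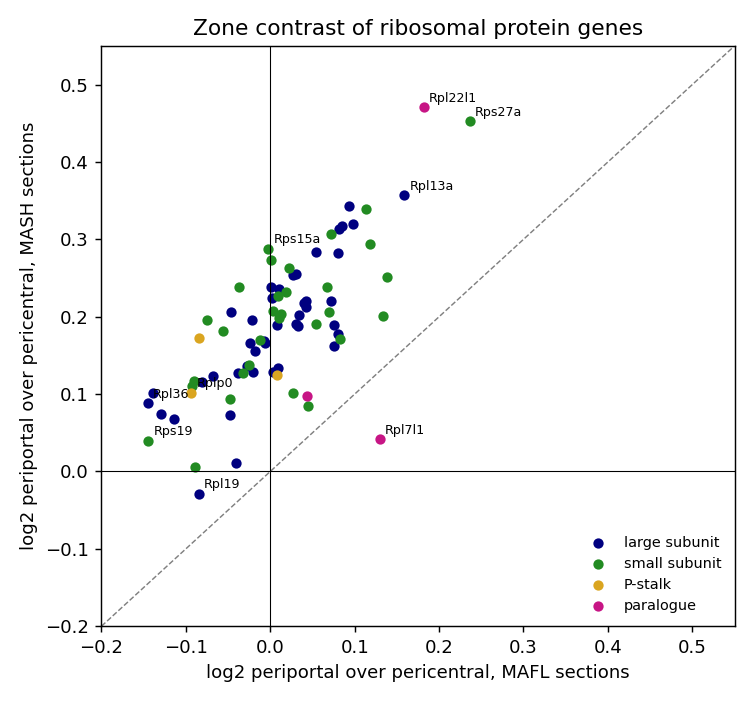
Log2 difference between the periportal and pericentral classes for 80 members, fitted in the MAFL sections (horizontal axis) and in the MASH sections (vertical axis), coloured by role, with the line of equal values dashed. All points but Rpl7l1 lie above the line, while the interaction test called 0 members.

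The middle class was no peak for these genes. Against the mean of both ends, edgeR called 0 of 80 members (background 0.0248% higher and 0.00% lower) and DESeq2 called 0 (0.0165% and 0.00826% of all genes). At an unadjusted p 0 were higher and 4 lower, as were 3.16% and 2.21% of all genes. The median was -0.05 (log2) and 2 of 80 were positive, and it was -0.03 without MASH-2 and -0.01 with spots ranked within UMI classes.

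Seen the other way, MASH against MAFL within each lobule class gave Rpl10 as the one member called in each. Its log2 fold change was 1.05 (SE 0.18, adjusted p = 0.0448) in the pericentral class, 1.09 (SE 0.19, adjusted p = 0.0498) in the middle and 1.26 (SE 0.17, adjusted p = 0.023) in the periportal class, and with the section number as a block the count was 0 in all 3. The background called higher was 0.466%, 0.353% and 0.914%. The members' medians were 0.26, 0.29 and 0.43, and without MASH-1 they were 0.09, 0.12 and 0.32, with 51, 56 and 75 of 80 positive. At an unadjusted p, 5, 7 and 42 members were higher and 0 lower, where 9.30%, 8.55% and 9.56% of all genes were higher and 8.30%, 7.69% and 8.04% lower, so the first of these counts lies below the background and the next close to it. Rps2 had 0.52, 0.63 and 0.78 in the same order, and Rpl22l1 0.49, 0.51 and 0.77, none past the test. Rpsa (-0.17, -0.12 and 0.07) and Rpl8 (-0.12, -0.12 and 0.05) were negative in the pericentral and positive in the periportal class, as were Rpl31, Rpl5 and Rps15. None of these 5 passed the interaction test above (adjusted p 0.343 to 0.543). Rpl7l1 was negative in all 3.

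Other genes of protein synthesis and export were zoned in part. Over all genes 11.0% were called higher periportally and 12.3% lower. Of 33 initiation factors 1 was higher and 3 lower, of 38 ribosome biogenesis genes 1 and 2, and of 20 tRNA synthetases 4 and 2. In the periportal class, 4 of 12 elongation factors were higher, among them Eef1b2 (log2 0.21) and Tpt1 (0.17). So were 3 of 7 ribosome-associated genes, Btf3 (0.17), Naca (0.13) and Rack1 (0.13). Btf3 and Naca form the complex that meets new chains at the tunnel exit. Of 25 translocon and signal peptidase genes, 9 were higher, such as Sec61b (0.29), a subunit of the protein channel of the endoplasmic reticulum, and 1 lower. Proteasome genes ran the other way, with 14 of 24 lower periportally, as Psmd4 (-0.31), and 0 higher. Of the bile duct list 8 of 9, of the immune list 10 of 23 and of the lipid-associated macrophage list 7 of 11 were higher periportally. Of the endothelial list 8 of 10 were lower and 0 higher, and of 12 stellate cell genes 4 were higher and 3 lower. The part of these cell types in the members' differences was not tested. The summed immune list took 11.2 and 14.1 of every 10000 UMIs in the pericentral and periportal classes of MASH-1 and 19.6 and 18.9 in those of MASH-2. In MASH-2 the lipid-associated macrophage list took 5.16 and 7.99 of every 10000, and the bile duct list 7.06 and 10.04.

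Spots were last ranked into 5 classes by total UMIs in each section. The ribosomal share in the lowest and highest UMI class was 4.66% and 4.69% in MAFL-1, 4.24% and 4.62% in MAFL-2, 5.98% and 6.61% in MASH-1 and 5.45% and 5.93% in MASH-2. The highest class was above the lowest by 0.0279, 0.380, 0.630 and 0.483 percentage points, least in MAFL-1. With the section as a block, 76 of 80 members were higher in the highest class and 0 lower (edgeR, adjusted over 11756 genes), where 9.81% of all genes were called higher and 6.94% lower, and DESeq2 also called 76 and 0 (7.80% and 4.66% of all genes). The median log2 difference was 0.24, and 76 of 80 were higher in all 4 sections, as in 15.4% of all genes. The fit uses 20 sums of a section and class, from 4 sections. TMM moves this scale: with library totals in its place, which shift the median of all genes to -0.13, 42 members were higher and 1 lower. Over all genes and both directions, 1969 were called with TMM and 2610 with library totals. With library totals the members' median was 0.10, and Rplp0 and Rplp2 changed sign.

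Rpl10 again led, at 189 and 274 CPM in the lowest and highest UMI class of MAFL-1, 186 and 283 in MAFL-2, 390 and 569 in MASH-1 and 448 and 619 in MASH-2 (log2 0.54, SE 0.04). Its lowest class in MASH was above its highest class in MAFL. Rpl35 (0.48), Rpl13a (0.37), Rps27a (0.36), Rpl21 (0.35) and Rpl22l1 (0.34) followed, all past the test, as were Rps2 (0.34) and Rpl41 (0.34). The 4 members that did not pass were Rpl19 (0.02), Rpl7l1 (0.06), Rpsa (0.07) and Rpl3 (0.09). Nuclear genes of the respiratory chain had a like pattern, with 19 of 23 higher, such as Uqcrh (0.37), and so did 24 of 77 mitochondrial ribosomal proteins. Of 12 hepatocyte markers 9 were higher and of 10 Kupffer cell markers 8 (median 0.28), and their part in the members' differences was not tested. As a share of UMIs, the summed Kupffer cell list rose clearly only in MASH-1. Per 10000 UMIs it took 5.25 and 5.19 in the lowest and highest class of MAFL-1 and 6.81 and 6.88 in MAFL-2. It took 8.38 and 11.15 in MASH-1 and 10.07 and 10.11 in MASH-2. Of the other lists, 4 of 5 erythroid genes, such as Hba-a1 (-2.03), and 5 of 12 stellate cell genes were lower.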

How the data were processed

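Counts are those the authors deposited: whole UMI numbers per gene and spot. Per the file headers the software was Space Ranger 1.2.2, and the submitters' processing notes name mm10. How reads shared by genes and pseudogenes were treated is not given in the sources used here. Spots under 500 UMIs were left out (3 in MAFL-1, 3 in MASH-1). Positions of spots were not used. Barcodes mark places on a slide, and 1182 to 1725 recur between any 2 sections.

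Counts were summed per section, per section and lobule class, or per section and UMI class, and fitted with edgeR 4.0.16 (filterByExpr, TMM, robust quasi-likelihood, adjusted p of 0.05) in R 4.3.3, with section as a block for classes. DESeq2 1.42.0 was an alternative. The SE is the log2 fold change over the square root of its F. The 3 lobule classes rank log2((Cyp2f2 + 1)/(Cyp2e1 + 1)), and 128 to 201 spots per section lay within 0.1 of a border. Python 3.11.15 with scipy 1.17.1 did the rest.

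On simulated counts the whole-section fit (13593 genes) recovered 64 of 100 2-fold and 97 of 100 4-fold changes with 18 false among 179 calls, and the interaction fit (12577 genes) 100 of each with 9 false among 209. No change under 2-fold was simulated, while the members' interaction differences were at most 0.30 (log2). Recovery at that size is therefore not known. Sections with the same number did not deviate together (r = -0.195 over 13593 genes), so the numbers were not taken as pairs.

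Members and lists were chosen with earlier results of these data known. Named are the 6 highest and 6 lowest members of a comparison, all members past the test where 10 or fewer pass, the stalk genes and Rpsa, Rps6, Rpl3, Rpl10, Rpl22, Rpl22l1, Rps27, Rps27l, Rpl39 and Rpl41, and up to 3 genes a list; some of these are not reported here. Other names are extremes of a printed range, X-linked members or list members of known role, chosen after their values were seen.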

Additional observations from a re-analysis of the deposited data

Results flagged for a closer look

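In 5 of the members named, the periportal class was lower in both MAFL sections and higher in both MASH sections. The interaction of lobule class and model (log2, MASH minus MAFL) was 0.24 for Rpl36, 0.19 for Rpl29, 0.2 for Rplp0, 0.26 for Rplp1 and 0.24 for Rpsa. None of the 5 passed the interaction test with edgeR, with adjusted p-values of 0.308 to 0.504.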

How the results depend on the processing

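Of the counts and shares that answer a comparison, 169 values under alternatives stayed close to the value reported and 34 moved. Counts were taken as close if equal or of similar size, so counts of 0 that stayed 0 are among the 169. Shares were taken as close if they moved by less than their SD over sections. For the periportal against pericentral share that SD is larger than the mean difference, so a fall to 0 would also have been taken as close. For MASH against MAFL, the 1 member called higher became 3 with DESeq2, 2 without a filter on low counts, 0 in spots of 10000 to 30000 UMIs, 0 with the replicate block and 0 to 1 with a section left out. A crossed pairing, added after seeing the data because same-numbered sections deviated oppositely, called 2. Over all genes and both directions, the calls were 62 as reported, 627 with DESeq2, 1153 without the filter and 781 with the crossed pairing. In the periportal class they were 160 as reported, 341 with DESeq2 and 1175 without the filter. Within lobule classes the 1 called became 0 with the replicate block in each class, and 3 with DESeq2 and 6 without a filter in the periportal class. For fits with a section left out, which leave a lone section in a model, the members' median (log2) is given in place of a count. It was 0.09 to 0.38 in the pericentral class, 0.12 to 0.42 in the middle and 0.32 to 0.54 in the periportal class. The 27 members higher periportally became 17 with classes ranked within bins of UMIs, 41 with the outermost of 5 classes in place of 3 and 14 to 27 with a section left out. The 0 lower became 1 with library totals and 0 to 1 with a section left out. The interaction count of 0 became 0 to 61 with a section left out. Such interaction fits leave a lone section in a model, so this range cannot tell how many members differ between the models. Calls over all genes also rose without either MASH section. The members' median interaction difference was 0.14 to 0.24 (log2) in these fits, beside 0.19 with all sections. In the MAFL sections alone, ranking within bins of UMIs gave 4 higher and 14 lower, and in the MASH sections 12 higher. The 76 members higher in the top UMI class became 42 with library totals, and 1 was lower. Over all genes and both directions, the 1969 called became 2610 with library totals. There Rplp0 (-0.0184) and Rplp2 (-0.0067) reversed. The causes were not tested. Of values of single named genes, 27 lost their call and 2 reversed. Counting error is small for the shares: the widest 95% interval in any lobule class was 0.0273 percentage points.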
